A study of Anopheles merus and Anopheles coluzzii with 36 samples.

Results

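Larvae of Anopheles merus, a euryhaline mosquito whose young stages live in waters from fresh to salty, were moved from fresh water into water at 10% of the salinity of seawater, the mildest salt exposure of the study. Their transcripts were compared with those of larvae held in fresh water over the same hours. The comparison rests on 6 of the 36 libraries of the study, 3 from An. merus larvae at 10% and 3 from An. merus larvae at 0%, chosen by the species and salinity on their labels. All larvae grew up in fresh water and entered the test water at 18 h after hatching, for an exposure of 6 h. Each library was made from the poly(A) RNA of 1 pool of 35 to 50 whole larvae, so the control larvae differed from the exposed ones, as far as the labels say, in the water of those 6 h alone. The other libraries used here are An. merus larvae at 20, 30, 40 and 50% of seawater and larvae of An. coluzzii, a stenohaline (fresh water) sibling species, treated in the same way at 10% and the 5 other salinities, again 3 pools to a group. No strain, colony or sex is given in the sources used here. Whether pools with the same treatment were drawn from separate cultures is not in the labels, and the p-values measure only the spread between these pools, which may be technical. In pools of whole larvae, fewer cells of a type and less RNA per cell cannot be told apart.

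Mosquito larvae in dilute water take up ions through the anal papillae and the gut and excrete dilute urine, which the Malpighian tubules form and the rectum modifies. In saline water salt-tolerant larvae have to excrete ions that they conserve in fresh water. In anopheline larvae the rectum holds a distinct group of cells whose content of sodium pump differs between fresh and saline water in tolerant species. The deposited table lists genes by identifier only, and no gene is assigned a name or a role here.

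The effect of 10% seawater on An. merus was small and lay mostly on the side of lower transcript levels, although that balance turned without 1 of the libraries at 0%. Of 10905 genes, 24 rose in the larvae at 10% and 63 fell, which are 0.22% and 0.578% of the genes tested (limma on log2 of CPM + 0.5, Benjamini-Hochberg adjusted p under 0.05). CPM is the deposited unit, counts of reads scaled to a common library size and then, by TMM, between libraries. Fold changes are on that scale. The median change was 1.75-fold up for the 24 genes, and for the 63 genes the median ratio of the level at 10% to that at 0% was 0.572. Only 7 of the risen genes and 23 of the fallen genes changed at least 2-fold, 6 fallen genes changed at least 4-fold, and no risen gene did. The 3 libraries at 10% and the 3 libraries at 0% did not overlap in any of the 24 or the 63 genes, while 1161 genes of the whole table had groups without overlap. At an unadjusted p under 0.05 there were 1593 genes, 709 of them higher and 884 lower at 10%.

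The called genes ran from low to high transcript abundance, up to 2042 CPM, below the most abundant transcript of the table at a mean of 17805 CPM. The mean level over the 6 libraries had a median of 19.7 CPM in the 24 risen genes and 26.3 CPM in the 63 fallen genes, against 19.8 CPM over all genes. In the risen genes it ran between 0.615 and 2042 CPM, and 5 of them were above 100 CPM and 3 below 5 CPM. In the fallen genes it ran between 0.367 and 677 CPM, with 11 above 100 CPM and 9 below 5 CPM. No gene had reads in all 3 libraries at 10% and none in the 3 at 0%. The reverse, no read in the 3 libraries at 10% and reads in all 3 at 0%, was found for 4 genes, which are not described as switched off, because a count of 0 allows up to 3 reads, or 0.183 to 0.224 CPM at 10% and 0.145 to 0.348 CPM at 0% (counting error only).

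**Figure D1:**
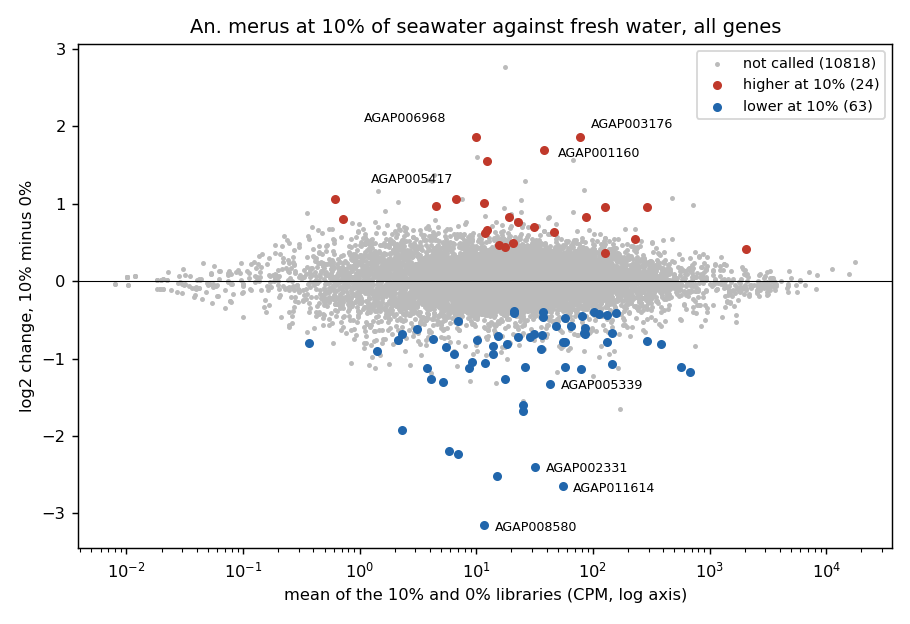
Log2 change of every gene in An. merus, 10% minus 0% (vertical), against its mean over the 10% and 0% libraries in CPM (horizontal, log axis). Red points are the 24 genes higher at 10%, blue points the 63 genes lower at 10% and grey points the genes not called; 8 genes described in the text are labelled, and the lower side reaches further (log2 change of -3.15) than the called genes of the upper side (1.86).

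Most of the transcriptome stayed within narrow limits at 10%. The 95% interval of the change lay within 2-fold in either direction for 10234 genes (93.8%) and within 1.5-fold for 7406 genes (67.9%). Among the 10818 genes that were not called, 29 had an estimate of 2-fold or more. The median of the log2 change over all genes was -0.00, and 0.01 after scaling by library totals, when 33 genes rose and 75 fell.

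The count of called genes depended strongly on single libraries. Library A at 0% stood apart. On the second principal component of the An. merus libraries it lay at 32.6, against 0.901 and 5.79 for libraries B and C at 0%, and it had the fewest reads, 9174563 of a range of 9174563 to 19548005 over the 6 libraries. The median difference between 2 libraries was 0.150 to 0.207 log2 units in the 3 pairs at 10%, and at 0% it was 0.311 and 0.300 where library A was one of them and 0.169 between B and C. Without library A or B at 10% the counts of called genes were 32 and 36, and without library C at 10% the count was 127. Without library A at 0%, 41 genes were called, 18 higher and 23 lower at 10%, and 39 of them were among the 87. Without library B at 0% the count was 144, and without library C at 0% it was 415, with 250 genes higher and 165 lower, so that the balance turned towards higher levels at 10%. Libraries with the same letter deviated together in the 10% and 0% groups (processing section), and with the letter as a block for these 6 libraries 145 genes were called, 50 higher and 95 lower, with all 87 among them. Fitted on these 6 libraries alone, the test called 2 genes, AGAP001160 and AGAP002331, and these were also the genes called under all 19 alternatives tried.

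**Figure D2:**
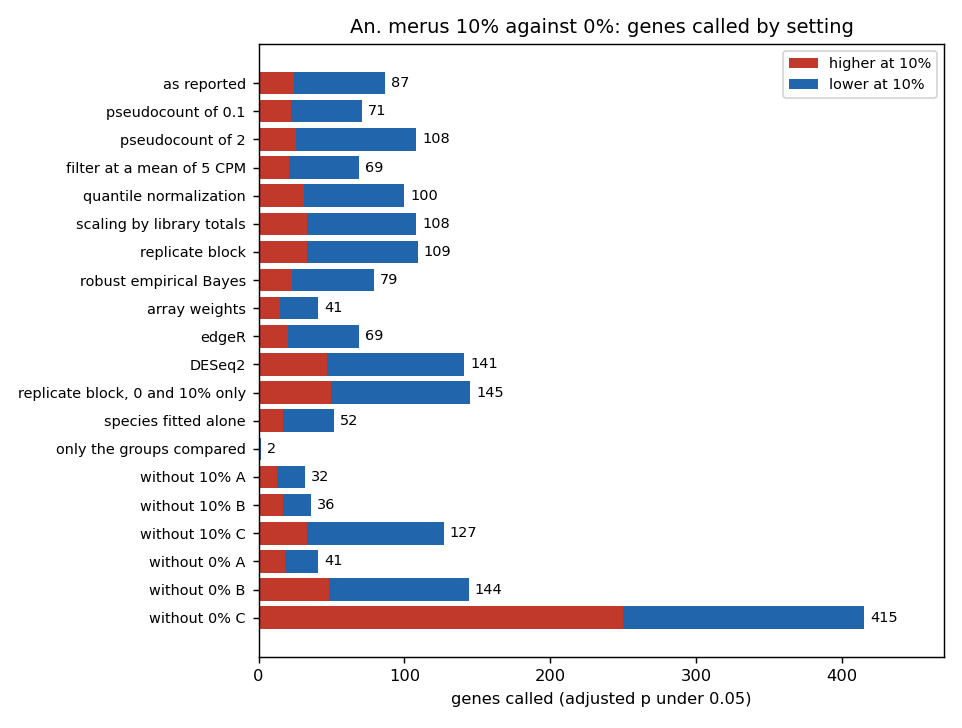
Number of genes called in An. merus at 10% against 0% (horizontal, adjusted p under 0.05) as reported and under each alternative (vertical), split into genes higher at 10% (red) and lower at 10% (blue), with the total at the end of each bar. The counts run between 2 with only the 6 libraries compared and 415 without library C at 0%.

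Each pool showed the shift of the called genes at about the same size. Set against the mean of the 0% libraries, the 24 risen genes had a median log2 change of 0.88, 0.70 and 0.82 in libraries A, B and C at 10%, and the 63 fallen genes had -0.81, -0.89 and -0.70. With the mean of the 10% libraries set against each library at 0%, the median was 0.77, 0.92 and 0.71 for the risen genes and -0.91, -0.75 and -0.84 for the fallen genes against libraries A, B and C. These genes were chosen for differing between the 2 groups, so the medians describe how even the pools were and are no further test.

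Among the called genes whose mean over both groups was 5 CPM or more, the 2 that rose most were AGAP006968 and AGAP003176. AGAP006968 had 14.2, 14.7 and 18.3 CPM in larvae at 10%, against 5.34, 2.62 and 4.29 CPM in larvae at 0%. Every library at 10% was above every library at 0% by a wide gap, with means of 15.7 ± 2.21 CPM at 10% and 4.08 ± 1.37 CPM at 0% (SD, n = 3 each). The log2 change of AGAP006968 was 1.86 ± 0.23 (SE), or 3.64-fold, with an adjusted p of 1.2e-05 by limma. AGAP003176 was a more abundant transcript, at 134.1, 134.4 and 91.2 CPM in larvae at 10%, against 45.6, 37.2 and 19.6 CPM in larvae at 0%. Library C was the lowest of its group at both salinities, and the groups did not overlap. The log2 change was 1.86 ± 0.22 (SE), or 3.63-fold (limma adjusted p = 5.3e-06), and AGAP003176 averaged 119.9 ± 24.9 CPM at 10% and 34.1 ± 13.3 CPM at 0% (SD, n = 3 each).

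The 2 genes that fell most by the same rule were AGAP008580 and AGAP011614, and both had 1 library at 0% far above the others. AGAP008580 had 0.673, 1.03 and 3.61 CPM in larvae at 10%, which are 9, 17 and 51 reads, against 11.5, 9.35 and 43.5 CPM in larvae at 0%. It averaged 1.77 ± 1.60 CPM at 10% and 21.4 ± 19.1 CPM at 0% (SD, n = 3 each), and library C was the highest of each group. The log2 change of AGAP008580 was -3.15 ± 0.66 (SE; limma adjusted p = 0.013), and -2.48 (adjusted p = 0.044) without library C at 0%. Its call was lost without library A at 10% (limma adjusted p = 0.129) and without library B at 10% (adjusted p = 0.090), as well as under 3 settings of the fit. AGAP011614 had 8.38, 11.6 and 15.7 CPM in larvae at 10%, against 46.9, 44.1 and 202.4 CPM in larvae at 0%. Again library C was the highest at both salinities and the groups did not overlap. AGAP011614 had a log2 change of -2.65 ± 0.44 (SE; limma adjusted p = 0.00096), and of -1.93 (adjusted p = 0.014) without library C at 0%. Leaving out library A at 0%, which stood apart, gave log2 changes of 2.06 for AGAP006968, 2.11 for AGAP003176, -3.42 for AGAP008580 and -2.98 for AGAP011614, each still past the threshold.

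The genes with the smallest adjusted p were others, whose pools lay close together. AGAP001160 had 52.1, 60.7 and 61.6 CPM in larvae at 10%, against 18.0, 15.9 and 18.9 CPM in larvae at 0%. The lowest library at 10% was well above the highest at 0%, and the means were 58.2 ± 5.24 CPM at 10% and 17.6 ± 1.56 CPM at 0% (SD, n = 3 each). AGAP001160 changed by 1.70 ± 0.14 on the log2 scale (SE), or 3.24-fold, with a limma adjusted p of 3.0e-09. AGAP005417, a transcript of lower abundance, had 22.1, 17.5 and 16.3 CPM in larvae at 10%, against 4.99, 6.23 and 6.94 CPM in larvae at 0%. It averaged 18.6 ± 3.05 CPM at 10% and 6.05 ± 0.989 CPM at 0% (SD, n = 3 each), with no overlap. Its log2 change was 1.54 ± 0.12 (SE), or 2.91-fold (limma adjusted p = 3.0e-09). These 2 genes, and the 2 described next, are named by the rule for the difference between species, which is given further on.

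On the lower side, AGAP002331 had 11.6, 9.25 and 8.36 CPM in larvae at 10%, against 65.9, 43.5 and 52.0 CPM in larvae at 0%. The 3 libraries at 10% lay far below the 3 at 0%, with means of 9.74 ± 1.67 CPM at 10% and 53.8 ± 11.3 CPM at 0% (SD, n = 3 each). AGAP002331 changed by -2.40 ± 0.21 log2 units (SE; limma adjusted p = 1.4e-08), a 5.27-fold lower level at 10%. AGAP005339 fell less, to 25.7, 22.4 and 21.6 CPM in larvae at 10%, against 51.6, 43.0 and 91.5 CPM in larvae at 0%. The groups did not overlap, although library C at 0% was far above the other 2. The log2 change of AGAP005339 was -1.33 ± 0.22 (SE; limma adjusted p = 0.00096).

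The next step of equal size, 20% against 10% in An. merus, gave no called gene (0% of 10905 genes) by limma, with a smallest adjusted p of 0.233. At an unadjusted p under 0.05 there were 266 genes, 80 higher and 186 lower at 20%, against the 1593 of the first step. The 266 are fewer than 10905 tests would give on average with no gene changed. edgeR called 0 genes and DESeq2 called 1, which was higher at 20%. Both steps use the libraries at 10%, so the counts are only set side by side. Set against the 0% libraries instead, larvae at 20% had 1283 called genes of 10905, 514 higher and 769 lower, beside 87 at 10%. The lack of calls between 20% and 10% thus does not show that the response ended at 10%. A test of the difference between the steps, 10% against 0% minus 20% against 10%, was added after the data were seen and called 4 genes (0.0367%). AGAP001160 rose more in the first step than in the second, by 1.24 ± 0.24 log2 units (SE; limma adjusted p = 0.039), and AGAP005417 did so by 1.33 ± 0.21 (SE; limma adjusted p = 0.0098). AGAP002331 fell more in the first step than in the second, with a difference of -1.91 ± 0.37 (SE; limma adjusted p = 0.039), and the 4th gene, AGAP013746, was also on the lower side. This count was 1 without libraries A or C at 0%, library C at 10% or library A at 20%, 2 without library B at 20%, and 0 without library A or B at 10%. The other libraries left out in turn gave 3 and 4 genes.

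The genes called at 10% kept their direction on average up to 50% of seawater, set against the same 0% libraries. The median log2 change of the 24 risen genes was 0.81, 0.90, 0.99, 1.02 and 1.22 at 10, 20, 30, 40 and 50%. That of the 63 fallen genes was -0.81, -1.003, -1.09, -1.14 and -1.06. Over all genes the medians at the same salinities lay between -0.06 and -0.00. Because every one of these changes shares the 0% libraries that chose the genes, they describe the levels and are not a second test. The spread widened with salinity, and at 50% the risen genes ran between -0.81 and 3.60 and the fallen genes between -3.83 and 1.36.

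**Figure D3:**
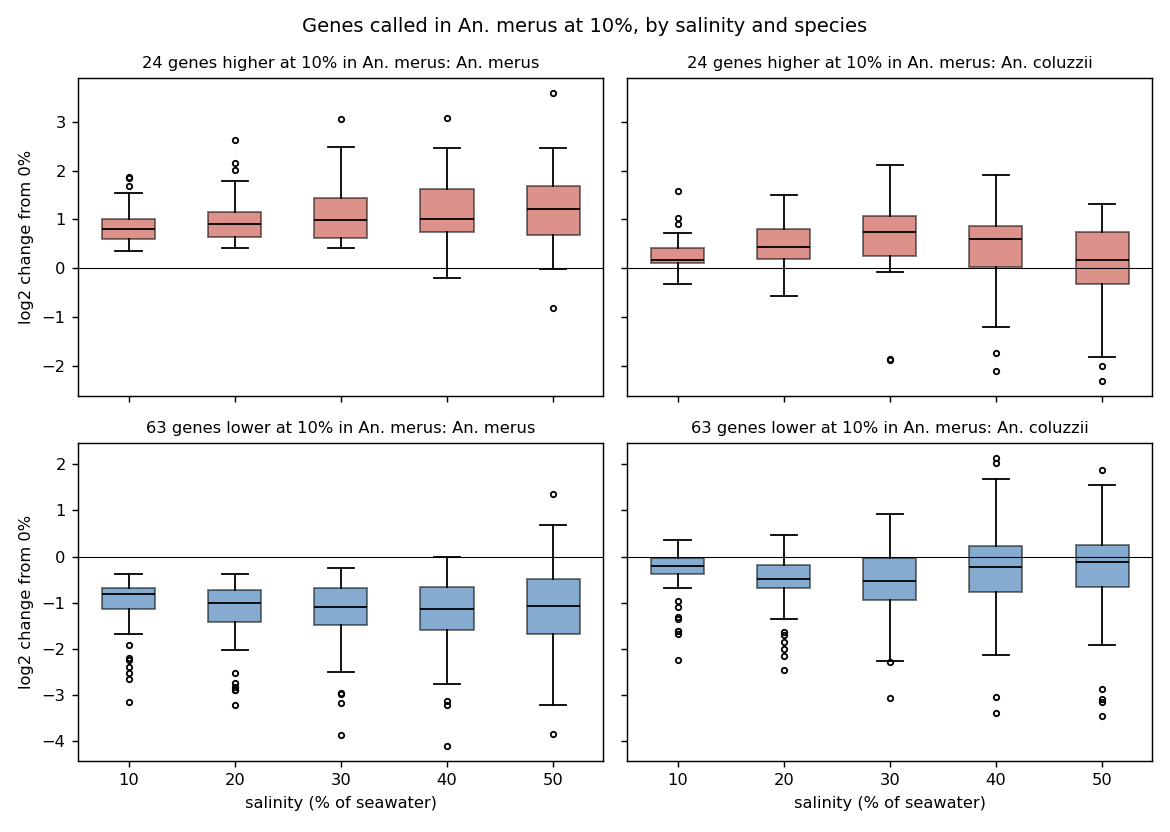
Log2 change from 0% (vertical) by salinity (horizontal, % of seawater) for the 24 genes higher (top) and the 63 genes lower (bottom) in An. merus at 10%, in An. merus (left) and An. coluzzii (right). Boxes span the quartiles over genes with the median as a black line, whiskers reach the last gene within 1.5 box lengths and circles are genes beyond; in An. merus the medians stay between 0.81 and 1.22 (top) and between -1.14 and -0.81 (bottom).

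The slope over 20, 30, 40 and 50% in An. merus uses none of the 6 libraries at 10% and 0% in its estimate, although all 36 libraries share the estimate of the spread with which the 87 genes were called. Of the 24 risen genes 12 had a rising slope, 5 a falling slope and 7 neither. Over all genes 26.5% rose and 32% fell along these salinities (limma adjusted p under 0.05), so a rising slope was more frequent in these 24 genes than in the table, without a test of that difference. Of the 63 fallen genes 16 went on falling, 18 rose again and 29 had no called slope, which are shares near those of all genes. Together 28 of the 87 genes (32.2%) continued in the direction of their first change, and 51.6% of the 415 genes called without library C at 0% did. With scaling by library totals, where 1893 genes of the table rose and 4324 fell instead of 2887 and 3492, the 24 genes gave 11 rising and 6 falling slopes and the 63 genes 14 rising and 24 falling ones, so the small majority of the 63 genes changed sides.

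**Figure D4:**
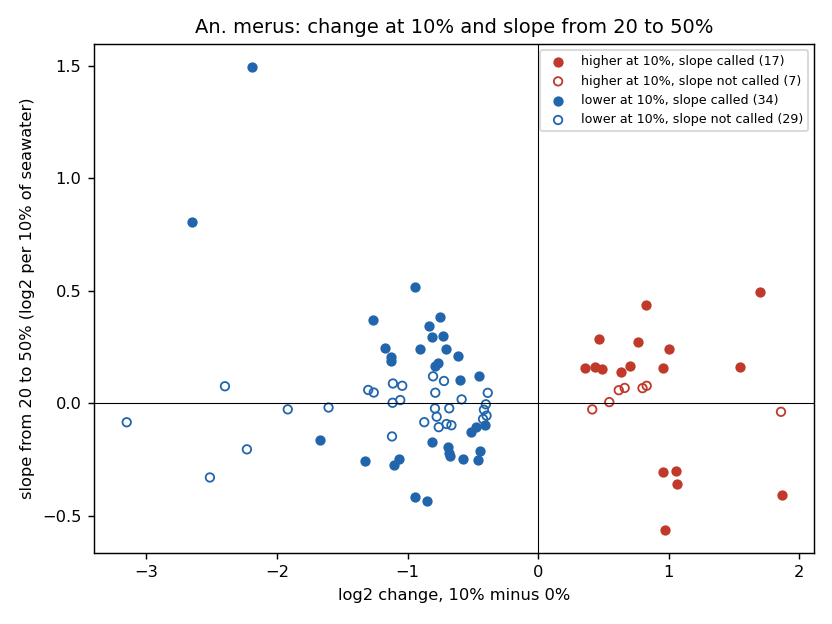
Slope over 20 to 50% of seawater in An. merus (vertical, log2 per 10% of seawater) against the log2 change at 10% minus 0% (horizontal) for the 24 genes higher at 10% (red) and the 63 lower at 10% (blue). Filled points have a called slope and open points do not; 12 of the red genes have a called rising slope, and the called slopes of the blue genes fall on both sides of 0, 18 above and 16 below.

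Single genes took different courses after the first step. AGAP001160 went on climbing, with means of 79.9, 101.3, 152.2 and 218.9 CPM at 20, 30, 40 and 50%, a slope of 0.49 ± 0.04 log2 units per 10% of seawater (SE; limma adjusted p = 2.4e-10). AGAP005417 rose slowly, to means of 21.5, 23.6, 25.7 and 30.7 CPM at those salinities, with a slope of 0.16 ± 0.04 (SE; limma adjusted p = 0.00074). AGAP003176 stayed near its level at 10%, and its means of 132.2, 138.6, 135.6 and 122.6 CPM at 20 to 50% gave a slope of -0.04 with a 95% interval of -0.18 to 0.11. AGAP006968 was highest in between. It had means of 27.3, 36.4, 24.0 and 12.8 CPM at 20, 30, 40 and 50%, and its slope over these salinities was falling, -0.41 ± 0.07 (SE; limma adjusted p = 2.8e-05).

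The fallen genes diverged as well. AGAP002331 stayed low, at means of 6.84, 6.45, 7.56 and 7.91 CPM at 20, 30, 40 and 50%, with a slope of 0.08 and a 95% interval of -0.06 to 0.21. AGAP008580 also remained low, between 1.77 and 2.24 CPM in its group means, with a slope of -0.08 and a 95% interval of -0.51 to 0.35. AGAP011614 came back, with means of 10.1, 14.6, 21.2 and 57.8 CPM at 20, 30, 40 and 50% and a slope of 0.81 ± 0.14 (SE; limma adjusted p = 1.5e-05). AGAP005339 declined further, with means of 27.1, 25.0, 19.6 and 16.1 CPM and a slope of -0.26 ± 0.07 (SE; limma adjusted p = 0.0025).

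**Figure D5:**
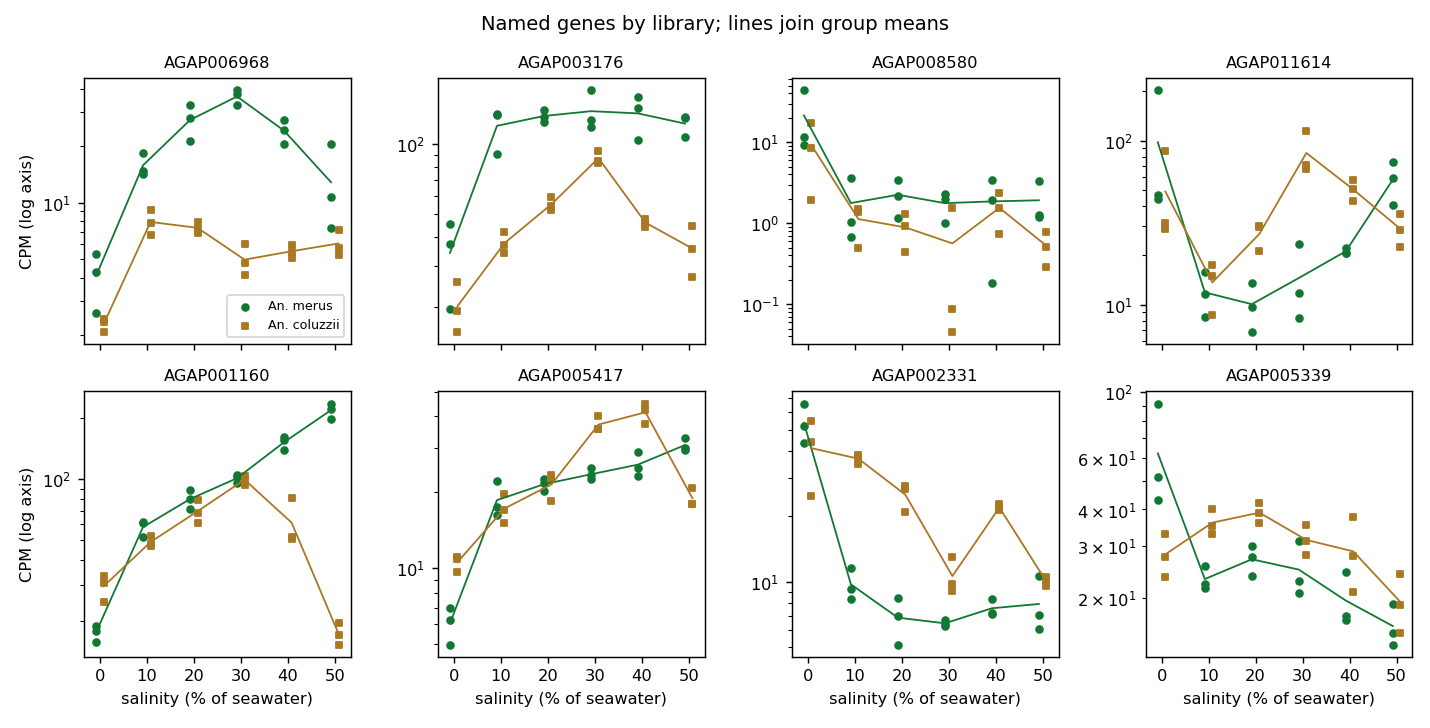
CPM of the 8 named genes (vertical, log axis, own scale in each panel) in each library by salinity (horizontal, % of seawater), with An. merus in green circles and An. coluzzii in brown squares; lines join the group means of 3 libraries. AGAP001160 climbs in An. merus to a mean of 218.9 CPM at 50%, AGAP002331 keeps means between 6.45 and 9.74 CPM at 10 to 50% in An. merus, and AGAP011614 falls at 10% and returns.

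The same exposure in An. coluzzii, in other libraries, gave a count of called genes whose order against that of An. merus depended on the fit. At 10% against 0%, 6 genes were called (0.055% of 10905), 5 higher and 1 lower at 10%, beside the 87 called genes of An. merus. An unadjusted p under 0.05 was found for 459 genes, fewer than 10905 tests would give on average with no gene changed. Of the settings tried in both species, array weights alone reversed the order, with 41 genes called in An. merus and 112 in An. coluzzii. That fit gave library B of An. coluzzii at 0% a weight of 5.32, beside 0.378 for each of libraries A and D. Library A of An. merus at 0% had a weight of 0.143. The counts for An. merus and An. coluzzii were 69 and 7 with edgeR, and 141 and 17 with DESeq2. Of the 24 genes risen in An. merus, 3 were called higher in An. coluzzii (AGAP001160, AGAP005417 and AGAP006968), and 22 had an estimate above 0. Of the 63 fallen in An. merus none was called, and 50 had an estimate below 0, where all genes divided evenly into 5447 above and 5452 below 0. The median log2 change in An. coluzzii was 0.17 for the 24 genes, -0.21 for the 63 genes and 0.00 over all genes. The An. coluzzii count of 6 was 1 without library A at 0% or library C at 10%, 3 without library A or B at 10%, and 9 without library B or D at 0%.

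In An. coluzzii at higher salinity, against its own 0% libraries, the 24 genes had median log2 changes of 0.43, 0.74, 0.59 and 0.16 at 20, 30, 40 and 50%, and the 63 genes had -0.49, -0.53, -0.21 and -0.11. Both lists were thus furthest from 0 at 30% and nearer to it at 50%. Over the whole range of 0 to 50%, 12 of the 24 genes had a rising slope and 7 a falling one, beside 35.3% rising and 40.4% falling over all genes. Of the 63 genes 27 had a falling slope and 18 a rising one. In all, 39 of the 87 genes (44.8%) had a slope in An. coluzzii in the direction of the change at 10% in An. merus. With scaling by library totals, when 2496 genes rose and 5990 fell instead of 3845 and 4408, the 24 genes turned to 8 rising and 12 falling slopes, and the 63 genes gave 37 falling and 12 rising ones.

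The difference in response itself, the change at 10% in An. merus minus that in An. coluzzii, was called for 7 genes (0.0642%), 2 with a higher and 5 with a lower response in An. merus. All 7 were among the 87 genes called in An. merus, whose libraries the test shares. An unadjusted p under 0.05 was found for 380 genes, fewer than 10905 tests would give on average with no gene changed. AGAP002331 differed most. It had 38.1, 34.8 and 37.4 CPM in An. coluzzii larvae at 10%, against 24.7, 54.6 and 44.0 CPM in An. coluzzii larvae at 0%, and these groups overlapped. The log2 change of AGAP002331 was -2.40 for An. merus and -0.09 for An. coluzzii, a difference of -2.31 ± 0.30 (SE; limma adjusted p = 0.00017). In An. coluzzii this transcript had means of 25.1, 10.6, 21.9 and 10.0 CPM at 20, 30, 40 and 50%. Its mean in An. merus at 10% was 9.74 CPM, a level not tested against those of An. coluzzii. AGAP005339 had 40.1, 35.2 and 32.9 CPM in An. coluzzii larvae at 10%, against 27.7, 23.7 and 33.1 CPM in An. coluzzii larvae at 0%, which overlap only slightly. The log2 changes of AGAP005339 were -1.33 for An. merus and 0.36 for An. coluzzii, a difference of -1.69 ± 0.31 (SE; limma adjusted p = 0.028).

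The 2 genes with the higher response in An. merus rose in both species. AGAP001160 had 46.8, 47.8 and 52.6 CPM in An. coluzzii larvae at 10%, against 24.8, 33.5 and 30.8 CPM in An. coluzzii larvae at 0%, a log2 change of 0.72 ± 0.14 (SE; limma adjusted p = 0.034). The libraries at 10% were all above those at 0%. The change in An. merus was larger by 0.97 ± 0.19 (SE; limma adjusted p = 0.043). AGAP005417 had 19.7, 15.1 and 16.9 CPM in An. coluzzii larvae at 10%, against 9.69, 10.9 and 11.1 CPM in An. coluzzii larvae at 0%. Its change of 0.67 ± 0.12 (SE; limma adjusted p = 0.025) was exceeded in An. merus by 0.87 ± 0.17 (SE; limma adjusted p = 0.043). For these 2 genes the means at 10% were 58.2 and 18.6 CPM in An. merus and 49.1 and 17.2 CPM in An. coluzzii. The means at 0% were 17.6 and 6.05 CPM in An. merus and 29.7 and 10.6 CPM in An. coluzzii. These levels were not tested between the species, and the genome that the reads of each species were mapped to is not given.

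With the replicate letter as a block in both species over all salinities, AGAP002331 alone was called for the difference (limma adjusted p = 0.0014). AGAP001160 and AGAP005339 (limma adjusted p = 0.055 each) and AGAP005417 (adjusted p = 0.13) lost their calls. The letters were not shown to pair the samples of either species (processing section), so the block rests on a shared letter only. Of these calls, that of AGAP002331 held in all but 1 of the 23 alternatives, the fit on the 4 groups alone (limma adjusted p = 0.076). The call for the difference was lost in 15 alternatives for AGAP001160, 13 for AGAP005417 and 9 for AGAP005339, all with the direction kept. Without library A of An. merus at 0% the differences were 0.99 for AGAP001160 and 0.75 for AGAP005417, neither past the threshold (limma adjusted p = 0.119 and 0.189), and -2.16 for AGAP002331 and -1.78 for AGAP005339, both past it. The number of genes called was 1 without library B at 10% of either species or library C of An. coluzzii at 10%, 3 without library A at 10% of either species or library A of An. merus at 0%, and 4 without library B of An. merus at 0%, library C of An. merus at 10%, or library B or D of An. coluzzii at 0%. Scaling by library totals gave 5 genes with a higher and 5 with a lower response in An. merus.

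Among the called genes, the one with the largest rise in An. merus also rose in An. coluzzii. AGAP006968 had 6.76, 7.75 and 9.17 CPM in An. coluzzii larvae at 10%, against 2.32, 2.07 and 2.40 CPM in An. coluzzii larvae at 0%. All 3 libraries at 10% were above those at 0%, and the log2 change was 1.59 ± 0.23 (SE; limma adjusted p = 0.0019). The difference between the species' responses was 0.27 with a 95% interval of -0.40 to 0.95, so a larger response in either species was not detectable here. AGAP003176 changed by 0.91 ± 0.22 in An. coluzzii (SE; limma adjusted p = 0.24), with means of 37.6 ± 3.99 CPM at 10% and 20.2 ± 5.08 CPM at 0% (SD, n = 3 each). AGAP011614 had a log2 change of -1.67 ± 0.44 in An. coluzzii (SE; limma adjusted p = 0.32) and AGAP008580 one of -2.23 ± 0.66 (limma adjusted p = 0.57), neither past the threshold. The difference between species was not called for these 3 genes (adjusted p = 0.97 each).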

How the data were processed

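Poly(A) libraries were made with a TruSeq v2 kit, per the labels. The submitters' processing notes name HTSeq, TopHat2, Bowtie2, Trimmomatic and edgeR, with no version, genome build, annotation or filter threshold given in the sources used here. The authors deposited 1 normalized expression signal per gene and library, CPM with TMM scaling, from which low genes and ribosomal RNA were removed, as the table's name says. TMM takes most genes as unchanged, so a change is measured against that majority. The deposited signal was a whole multiple of 1 read's worth, within 0.001, for 100% of values, and these multiples were taken as read counts. Every gene had at least 1.01 CPM in at least 3 libraries. The An. merus libraries held 13379322, 15165128 and 13565609 reads (A, B, C) at 10% and 9174563, 14768072 and 19548005 at 0%. Replicates differed beyond sampling noise in all 36 pairs.

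Values were tested as log2(CPM + 0.5), a scale that understates the change of low genes, in limma 3.58.1 (R 4.3.3) with 12 group means over 36 libraries, two-sided, with trended empirical Bayes and Benjamini-Hochberg over 10905 genes, threshold 0.05. The spread is thus pooled over all groups, while An. merus pools at 0% stood further apart. Their median within-group SD was 0.159 log2 units at 10% and 0.220 at 0% over the 8622 genes with an An. merus mean of at least 5 CPM. Over all genes it was 0.171 and 0.229. A slope is per 10% of seawater. On the recovered reads, edgeR 4.0.16 (quasi-likelihood) called 69 genes and DESeq2 1.42.0 called 141 at 10% against 0%. The procedure was tested on simulated data. Plots used matplotlib 3.10.9 (Python 3.11.15).

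Replicate letters come from the sample titles. Deviations of same-letter libraries from their group means at 10% and 0% in An. merus correlated at 0.41 (A), 0.65 (B) and 0.16 (C) across the 8622 genes. Unlike letters ran between -0.52 and 0.07. Deviations from a mean of 3 libraries cancel within the group, so these correlations are not independent and cannot establish a pairing. The fit with the letters as a block therefore only stands beside the count. Between 20% and 10% the same-letter correlations were -0.31, 0.11 and 0.33, and An. coluzzii shared only 2 letters between 10% and 0%. In An. coluzzii these correlated at 0.14 (A) and 0.20 (B), while unlike letters ran between -0.59 and 0.66.

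The reference table lists 16199 An. merus genes, and 0 of them matched the deposited identifiers, so no names, coordinates or sequences are given, and lists of ion transport, aquaporin, chaperone, cuticle, immunity and other genes were not tested. Named genes were the 2 risen most and 2 fallen most among those called with a mean of at least 5 CPM and no overlap (75 genes for 10% against 0%, 0 for 20% against 10%), and the 2 highest and 2 lowest for the difference between species (6 genes, no condition on overlap). AGAP013746 was named after its values were seen. The comparison and the lists were chosen with earlier results of these data known. Alternatives were other pseudocounts, a filter, quantile and library total scaling, blocks, robust and weighted fits, other tools, fewer groups and each library left out.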

Additional observations from a re-analysis of the deposited data

Results flagged for a closer look

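The response to 10% of seawater differed between An. merus and An. coluzzii, by a test of the difference itself, for 7 of 10905 genes. With the replicate letter as a block it did for 1 of them, AGAP002331, although the letters were not shown to pair the samples of either species. For AGAP001160 the log2 change was larger in An. merus by 0.97, and for AGAP005417 by 0.87. For AGAP002331 the log2 change in An. merus minus that in An. coluzzii was -2.31, and for AGAP005339 it was -1.69. These tests share the 6 An. merus libraries with the comparison of 10% with 0%.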

How the results depend on the processing

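For An. merus at 10% against 0%, where 87 genes were called, array weights gave 41, DESeq2 141, An. merus fitted alone 52, only the groups compared 2, and the replicate block of the 0 and 10% libraries (added after the data were seen) 145; leaving out 1 library gave 32 to 415. A replicate block over all salinities gave 109. For 20% against 10%, with 0 called, DESeq2 gave 1, and every other alternative, each library left out included, gave 0. For An. coluzzii at 10% against 0%, with 6 called, a replicate block gave 2, array weights 112, DESeq2 17, the species alone 1, only the groups compared 0, and leaving out 1 library 1 to 9. For the difference between species, with 7 called, a pseudocount of 2 gave 4, a replicate block 1, DESeq2 13, only the groups compared 0, and leaving out 1 library 1 to 8. For the first step minus the second, with 4 called, a pseudocount of 0.1 gave 1, a replicate block 1, array weights 2, edgeR 1, An. merus alone 1, only the groups compared 0, and leaving out 1 library 0 to 4. Same-letter libraries correlated best with each other in the first comparison only. That does not establish a pairing, so every block rests on a shared letter. Between 20 and 10% not every library correlated best with its own letter. The share of the 10% calls with a slope in the same direction was, without 1 library, 31.7 to 51.6% for slopes of An. merus and 41.7 to 50.0% for those of An. coluzzii. The causes were not tested. Slope counts stayed within 1.5 times, with An. merus at 5392 to 7066 and An. coluzzii at 6682 to 8851. Both lower ends came from the filter at a mean of 5 CPM, which tested fewer genes. Of the 24 risen and 63 fallen genes, 11 and 13 were called with each of the 6 libraries left out, and 1 and 1 under the 13 other alternatives. No named gene changed direction. Depth limits genes near 3 reads.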
